A study of Mus musculus with 19 samples.

Results

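The 10 genes described here encode filament and contractile parts of the cytoskeleton that are typical of mesenchymal cells: Vim, Syne3, Flna, Flnc, Tpm1, Tpm2, Acta2, Tagln, Cnn1 and Myl9. They were taken by gene symbol, as 10 of 51912 rows of the NSCLC and Normal count table and 10 of 24421 rows of the Resistant and Sensitive count table, and all 10 were found in both. The symbols were chosen by family and role with the fold changes of both comparisons in these same libraries already known, so the adjusted p-values below set a fold change against the spread between libraries and are not independent evidence. RNA was sequenced in bulk from mouse lung organoids, which are small clusters of cells grown in 3 dimensions, in 4 groups: 4 libraries of NSCLC (non-small cell lung cancer) organoids, 3 of Normal lung organoids, 9 of immunotherapy-resistant NSCLC organoids (Resistant) and 3 of immunotherapy-sensitive NSCLC organoids (Sensitive). The genotype, strain, sex and age of the mice, the tumour driver, and the immunotherapy agent, dose and time are not stated in the labels. Nor do the labels say whether the libraries of a group came from separate mice or cultures, so a p-value covers only how far these libraries vary, which may be technical. The question put to the members is how the cytoskeleton genes differ between Resistant and Sensitive organoids and between NSCLC and Normal organoids.

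Vimentin is the main intermediate filament protein of mesenchymal cells, while simple epithelia build theirs from keratins, and a shift towards vimentin is a classic sign of epithelial-mesenchymal transition. Nesprin-3, the product of Syne3, sits in the outer nuclear membrane and binds plectin, which ties intermediate filaments to the nucleus. Filamins cross-link actin filaments, and tropomyosins lie along them. Alpha smooth muscle actin (Acta2), transgelin (Tagln), calponin 1 (Cnn1) and myosin regulatory light chain 9 (Myl9) are the contractile set of smooth muscle and myofibroblasts, and many genes of that set are driven by serum response factor (SRF) through a DNA element called the CArG box.

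Library totals were 122967042 to 154479953 counts in NSCLC, 20138197 to 21060762 in Normal, 11988677 to 24462955 in Resistant and 15292427 to 18716749 in Sensitive organoids. Levels are given as CPM, the counts of a gene per 1000000 counts of the TMM-scaled library, which do not allow for gene length, and no level is compared between the count tables. A total of 3 counts, taken as the floor of detection, was worth 0.0201 to 0.0248 CPM in NSCLC, 0.132 to 0.140 in Normal, 0.119 to 0.244 in Resistant and 0.164 to 0.202 in Sensitive libraries. The epithelial markers summed to 252.5 to 1801 CPM in Resistant and 4281 to 4786 CPM in Sensitive libraries. Of the 6, 3 fell by the test given below. The groups did not overlap for any of the 6, which held for 31.3% of all genes tested. The fibroblast markers summed to 62.1 to 943 CPM in Resistant and 9.99 to 26.1 CPM in Sensitive libraries, with Postn at 0 in the Sensitive group, and all 6 that could be tested rose. The macrophage markers summed to 109 to 417 CPM in Resistant and 1048 to 2476 CPM in Sensitive libraries, and 4 of 6 fell. The pericyte and smooth muscle markers reached 26.1 to 95.6 CPM in Resistant and 16.5 to 28.2 CPM in Sensitive libraries, with 2 of 4 tested genes higher. The part these marker genes play in the members' results was not tested, and in bulk RNA fewer cells of a type and less RNA per cell cannot be told apart.

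In Resistant organoids the vimentin, filamin C, nesprin-3 and tropomyosin 2 genes were all higher than in Sensitive organoids, Flnc by 7.77 and Syne3 by 4.58 on the log2 scale, Vim by 4.0 and Tpm2 by 1.48. The contractile genes Acta2, Tagln, Cnn1 and Myl9 stayed under 4 CPM in every library of both groups, and the abundant Flna and Tpm1 did not pass the test. In all, 4 of the 8 members with enough counts to test were called higher at an adjusted p under 0.05, and 0 were called lower, with edgeR's quasi-likelihood test. Of all 14360 genes tested, 19.3% were called higher and 18.2% lower, 37.5% in all. The same 4 members were those whose Resistant and Sensitive libraries did not overlap, which held for 31.3% of all genes tested. Because the members were chosen with such results in view, nothing is read from these shares.

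Vim, on chromosome 2 (mm10, chr2:13573927-13582826, + strand), was measured at 1103 CPM in the lowest, 1943 CPM in the median and 3642 CPM in the highest of the 9 Resistant libraries, against 97.1, 248 and 63.0 CPM in Sensitive libraries 1 to 3. Every Resistant library lay above every Sensitive one, and library 5 was the highest and library 1 the lowest of the Resistant group. The means were 2182 ± 875 CPM in Resistant (SD, n = 9) and 136 ± 98.6 CPM in Sensitive organoids (SD, n = 3), a log2 fold change of 4.0 ± 0.53 (SE) with an adjusted p of 1.42e-04. Resistant library 5 also had the highest sum of fibroblast markers, 943 CPM, and library 1 the lowest, 62.1 CPM. The libraries between did not keep this order. Libraries 3 and 2, next highest for Vim at 3417 and 2631 CPM, had fibroblast marker sums of 227 and 256 CPM. Libraries 4, 7 and 8 had sums of 475 to 550 CPM, with Vim at 1817 to 2060 CPM. Sensitive library 2, with the most Vim of its group, had the highest macrophage marker sum, 2476 CPM, and the highest fibroblast marker sum of that group, 26.1 CPM. Whether these cells contribute to the Vim difference was not tested.

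Syne3, on chromosome 12 (mm10, chr12:104929933-105009809, - strand), was measured at 101 CPM in the lowest, 137 CPM in the median and 211 CPM in the highest Resistant library, against 6.41, 5.85 and 5.06 CPM in the Sensitive libraries. The groups were far apart and each was narrow, with a 2.08-fold range within the Resistant group and a 1.27-fold range within the Sensitive group. The means were 138 ± 34.5 CPM in Resistant (SD, n = 9) and 5.77 ± 0.68 CPM in Sensitive organoids (SD, n = 3), a log2 fold change of 4.58 ± 0.28 (SE) with an adjusted p of 7.20e-07. Plec, which encodes the plectin that nesprin-3 binds and is named here after its values were seen, averaged 489.8 ± 122 CPM in Resistant and 336 ± 10 CPM in Sensitive organoids, with an adjusted p of 0.0737.

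Flnc, the filamin of muscle (mm10, chr6:29433256-29461883, + strand), was measured at 73.8 CPM in the lowest, 151 CPM in the median and 191 CPM in the highest Resistant library, against 0.657, 0.914 and 0.405 CPM in the Sensitive libraries. The Sensitive values rest on 12, 15 and 6 counts, above the floor, and the lowest Resistant library was again library 1. The means of 146 ± 36.8 CPM in Resistant (SD, n = 9) and 0.659 ± 0.255 CPM in Sensitive organoids (SD, n = 3) gave a log2 fold change of 7.77 ± 0.42 (SE), with an adjusted p of 2.88e-07. The authors' deposited table lists 7.75 for this log2 fold change. Flnc was thus present in every library of the Resistant group at a level near that of Syne3 in CPM, and close to the floor in the Sensitive group.

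Flna, the broadly expressed X-linked filamin (mm10, chrX:74223461-74249820, - strand), went the other way in mean level without passing the test. It was measured at 424 CPM in the lowest, 712 CPM in the median and 875 CPM in the highest Resistant library, against 941, 813 and 883 CPM in the Sensitive libraries. The groups overlapped, and Resistant libraries 8 and 9 were the lowest, at 467 and 424 CPM. These libraries also had the most epithelial marker RNA of the Resistant group, 1464 and 1801 CPM. Resistant library 5, next lowest for Flna at 581 CPM, had the least, 252.5 CPM. The Sensitive libraries, with Flna at 813 to 941 CPM, had 4281 to 4786 CPM. The part of epithelial marker RNA in the Flna level was not tested. The log2 fold change was -0.36 ± 0.21 (SE), with an adjusted p of 0.197.

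Of the tropomyosins, Tpm2 rose and Tpm1 did not pass the test. Tpm2 (mm10, chr4:43514711-43523765, - strand) was measured at 54.6 CPM in the lowest, 103 CPM in the median and 125 CPM in the highest Resistant library, against 45.0, 33.4 and 27.7 CPM in the Sensitive libraries. The groups did not overlap, but Resistant library 1 lay near Sensitive library 1. The means were 99.0 ± 23.8 CPM in Resistant (SD, n = 9) and 35.4 ± 8.81 CPM in Sensitive organoids (SD, n = 3), a log2 fold change of 1.48 ± 0.26 (SE) with an adjusted p of 9.75e-04. Tpm1 (mm10, chr9:67022590-67049406, - strand) was measured at 393, 642 and 892 CPM in the lowest, median and highest Resistant library, against 680, 744 and 894 CPM in the Sensitive libraries. Its groups overlapped, with a log2 fold change of -0.30 ± 0.21 (SE) and an adjusted p of 0.281.

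**Figure D1:**
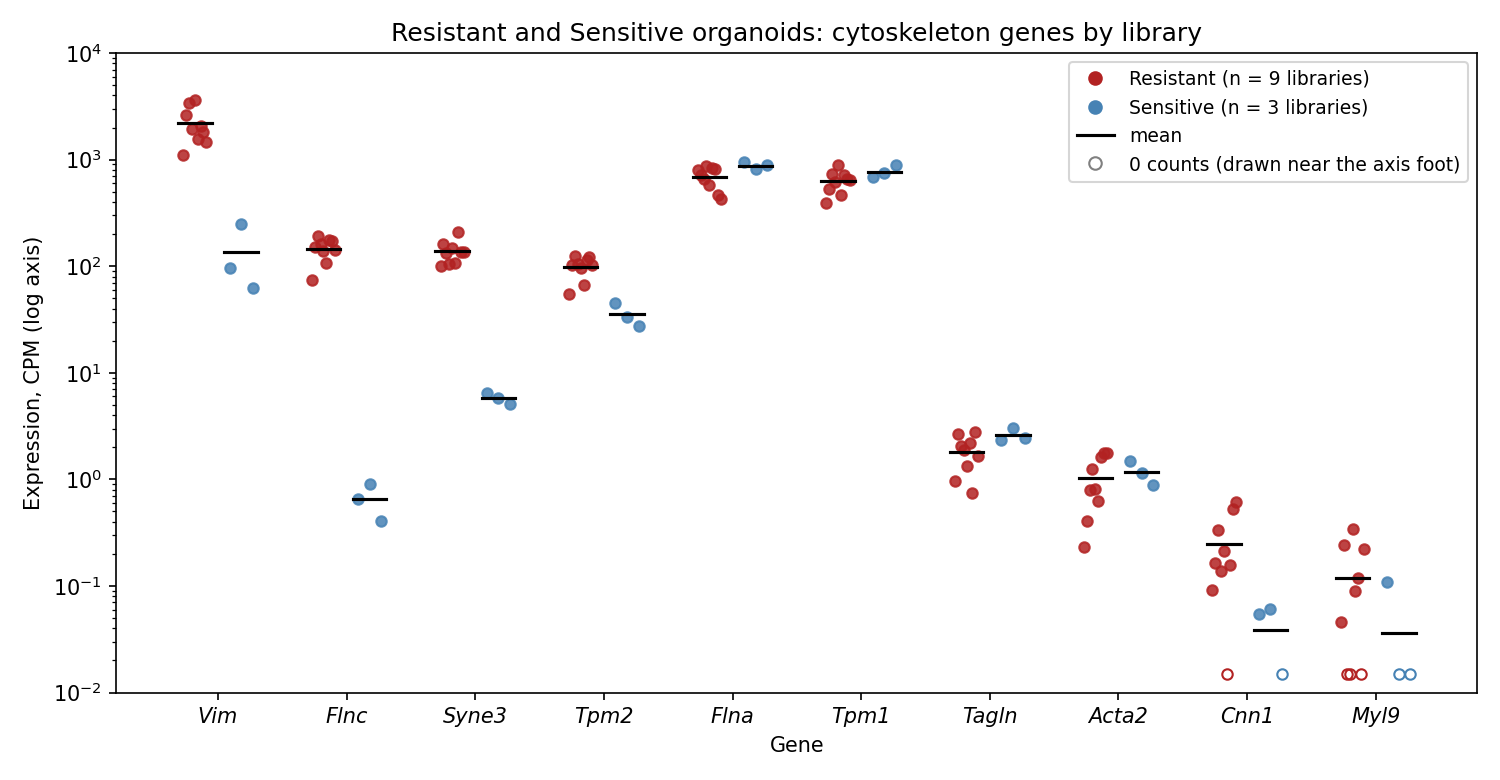
CPM on a log axis of the 10 members in the 9 Resistant and 3 Sensitive libraries; each point is a library and the horizontal bar is the group mean. Vim, Flnc, Syne3 and Tpm2 have no overlap between the groups, while Acta2, Tagln, Cnn1 and Myl9 stay low in both.

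The contractile set stayed at trace level. Acta2 (mm10, chr19:34241090-34255590, - strand) was measured at 0.231 CPM in the lowest, 0.818 CPM in the median and 1.78 CPM in the highest Resistant library, from 5 to 41 counts, against 1.48, 1.16 and 0.877 CPM in the Sensitive libraries. The groups overlapped, and the log2 fold change was -0.18 ± 0.57 (SE) with an adjusted p of 0.825; without Sensitive library 1 it was 0.03. Tagln (mm10, chr9:45929619-45936058, - strand) was measured at 0.753 CPM in the lowest, 1.90 CPM in the median and 2.77 CPM in the highest Resistant library, against 2.36, 3.05 and 2.43 CPM in the Sensitive libraries. These groups overlapped as well, with a log2 fold change of -0.53 ± 0.41 (SE) and an adjusted p of 0.330. The Tagln locus shares 3627 bases with the antisense gene Gm48529 and 108 bases with Pcsk7, and since the counting is not stated to use strand, reads from these genes cannot be told apart there.

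Cnn1 and Myl9 had too few counts for the test. Cnn1 (mm10, chr9:22099216-22109630, + strand) had 2, 2, 5, 3, 5, 0, 4, 9 and 11 counts in Resistant libraries 1 to 9, against 1, 1 and 0 counts in the Sensitive libraries. Summed over each group these are 41 counts against 2, a ratio of 5.75 after scaling with an exact 95% interval of 1.49 to 49.1, which covers counting error only. Without the filter on low counts the Cnn1 adjusted p was 0.126, and the authors' deposited table gives it as 0.125. Myl9 (mm10, chr2:156775420-156781658, + strand) had 1, 3, 0, 0, 8, 2, 3, 0 and 4 counts in the Resistant libraries, against 2, 0 and 0 in the Sensitive libraries, a ratio of 2.95 with an interval of 0.720 to 25.9. No difference in Myl9 was detected at these counts, and the interval is wide. Of other genes known from smooth muscle, named here after their values were seen, Myh11, the smooth muscle myosin heavy chain, had 22 counts over the 9 Resistant libraries and 5 over the 3 Sensitive ones, and Myocd, the smooth muscle coactivator of SRF, had 10 counts in Resistant and 0 in Sensitive libraries. Cald1, which smooth muscle shares with many other cells, was abundant and rose, at 248 CPM in Resistant and 45.4 CPM in Sensitive organoids, and so did Pdgfrb and Cspg4 of the pericyte and smooth muscle markers.

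The CArG box is 10 bases that begin with CC, end with GG and hold only A or T between. It was looked for in the 250 bases before the RefSeq start of each member (GRCm38.p6), allowing up to 1 mismatch. The pattern is its own reverse complement, so both strands were read at once. A window was at hand for 9 of the 10 members and not for Tagln, with 2 overlapping windows for Flnc. An exact match was found in 1 member, Myl9, and a match with at most 1 mismatch in 5 members: Acta2, Myl9, Flna, Flnc and Tpm1. Of 32851 such windows of mouse genes, 1.47% held an exact match and 18.6% a match with at most 1 mismatch. Shown here are the windows of Acta2 and Myl9, 2 contractile genes that stayed at trace level, and of Vim and Flnc, 2 genes that rose in Resistant organoids. Each is written 5′ to 3′ on the gene's strand, with matches in capitals. Those of Acta2 begin 84 and 34 bases before the start, those of Myl9 161 (the exact match) and 99 bases, and that of the Flnc window 163 bases.
Acta2 (chr19:34255374-34255623, - strand): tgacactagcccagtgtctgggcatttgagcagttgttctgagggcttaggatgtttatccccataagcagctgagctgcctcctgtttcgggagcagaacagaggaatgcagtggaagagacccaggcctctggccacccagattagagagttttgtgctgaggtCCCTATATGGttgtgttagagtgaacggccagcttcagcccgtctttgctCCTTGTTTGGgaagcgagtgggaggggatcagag
Myl9 (chr2:156775214-156775463, + strand): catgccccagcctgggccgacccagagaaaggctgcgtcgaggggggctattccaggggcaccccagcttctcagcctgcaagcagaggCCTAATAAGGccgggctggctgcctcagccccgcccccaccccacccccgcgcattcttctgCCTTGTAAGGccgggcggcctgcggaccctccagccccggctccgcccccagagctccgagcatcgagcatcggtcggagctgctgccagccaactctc
Flnc (chr6:29432903-29433152, + strand): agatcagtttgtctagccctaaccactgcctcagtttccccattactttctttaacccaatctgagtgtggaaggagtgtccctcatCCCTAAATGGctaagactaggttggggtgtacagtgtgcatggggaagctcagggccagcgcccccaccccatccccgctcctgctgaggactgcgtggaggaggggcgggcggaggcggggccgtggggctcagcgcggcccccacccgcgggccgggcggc
Vim (chr2:13574061-13574310, + strand): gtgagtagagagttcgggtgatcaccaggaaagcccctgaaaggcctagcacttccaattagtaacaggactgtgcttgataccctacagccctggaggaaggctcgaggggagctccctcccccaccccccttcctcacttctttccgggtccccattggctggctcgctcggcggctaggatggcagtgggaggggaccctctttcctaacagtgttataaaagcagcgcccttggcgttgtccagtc
The Vim window holds no match, nor does the other Flnc window or those of Syne3, Cnn1 and Tpm2. Of the 4 members higher in Resistant organoids, Flnc alone holds a near match in these windows. Acta2 and Myl9, at trace level, hold matches, and so do the abundant Flna and Tpm1. Cnn1, also at trace level, holds none, and Tagln had no window. The relation of matches to level was not tested. A match is a run of letters and not a measured site, and no match says nothing of sites elsewhere.

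**Figure D2:**
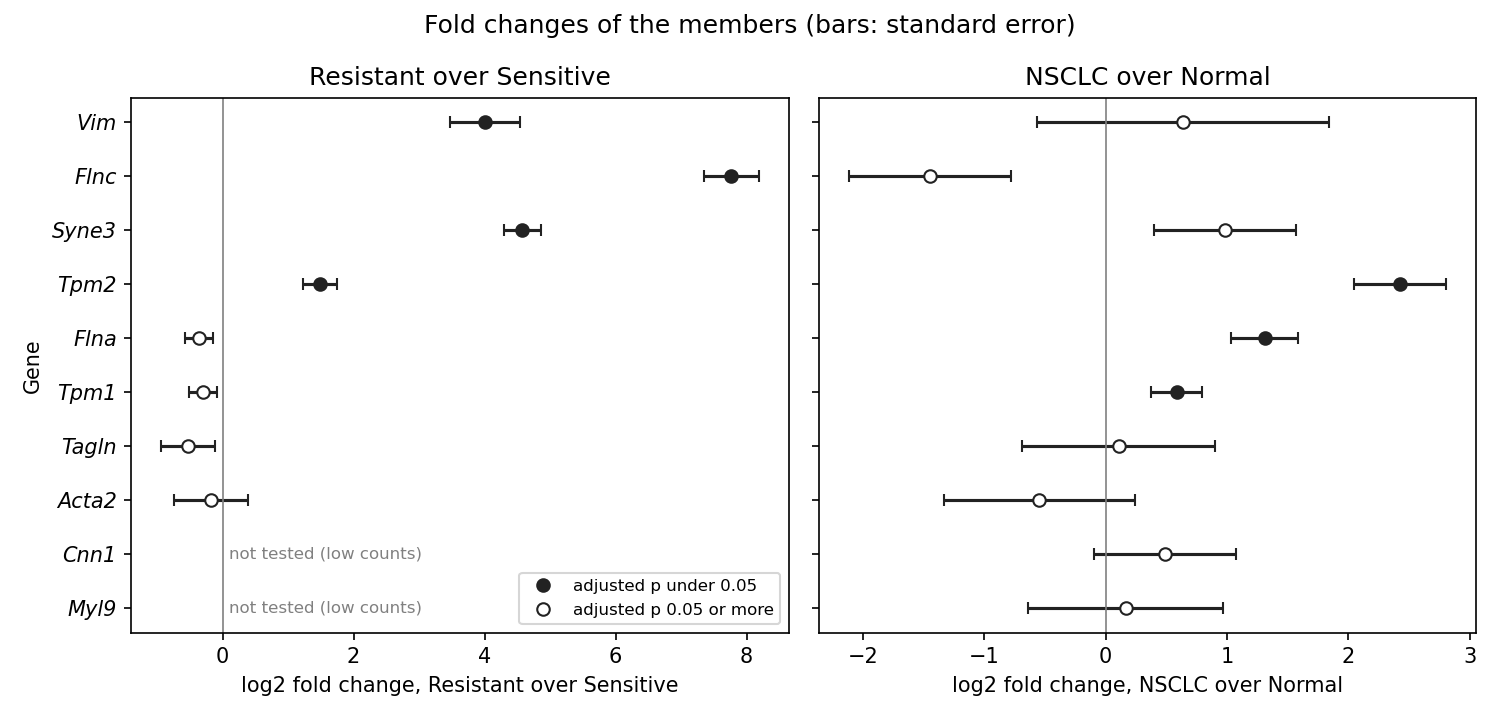
Log2 fold change of each member in Resistant over Sensitive organoids (left) and NSCLC over Normal organoids (right), with bars for the standard error; filled points have an adjusted p under 0.05. Vim, Flnc, Syne3 and Tpm2 are filled on the left, and Tpm2, Flna and Tpm1 on the right; Cnn1 and Myl9 were not tested on the left.

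Members within a family share a role, so the share of each family's RNA that came from a member was computed per length, as CPM per kilobase of exon; these family comparisons were chosen with the values known and carry no test. Vim made up 45.0 ± 18.4% of the summed level of Vim, Krt7, Krt8, Krt18 and Krt19 in Resistant (SD, n = 9) and 1.14 ± 0.85% in Sensitive organoids (SD, n = 3). Within the Resistant group this share was 22.1% in library 9, 30.0% in library 8 and 81.9% in library 5, so keratin RNA still outweighed vimentin RNA in some libraries and not in others. Syne3 made up 53.4 ± 5.2% of the 4 nesprin genes in Resistant and 10.2 ± 2.8% in Sensitive organoids, where Syne4, the epithelial nesprin, held the most at 49.5%. Tpm2 was 8.23 ± 1.5% of the tropomyosins in Resistant and 2.71 ± 0.57% in Sensitive organoids, and Tpm4 was the largest part in both, at 46.1% in Resistant and 46.6% in Sensitive organoids.

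The contractile members were a minute part of their families in both groups. Acta2 was 0.047% of the actins in Resistant and 0.054% in Sensitive organoids, where nearly all the rest was Actb and Actg1, the cytoplasmic actins. Tagln was 0.90% of the transgelins in Resistant and 0.69% in Sensitive organoids, the remainder being almost all Tagln2. Cnn1 was 0.057% of the calponins in Resistant and 0.022% in Sensitive organoids, and Myl9 was 0.063% of the regulatory light chains in Resistant and 0.018% in Sensitive organoids.

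**Figure D3:**
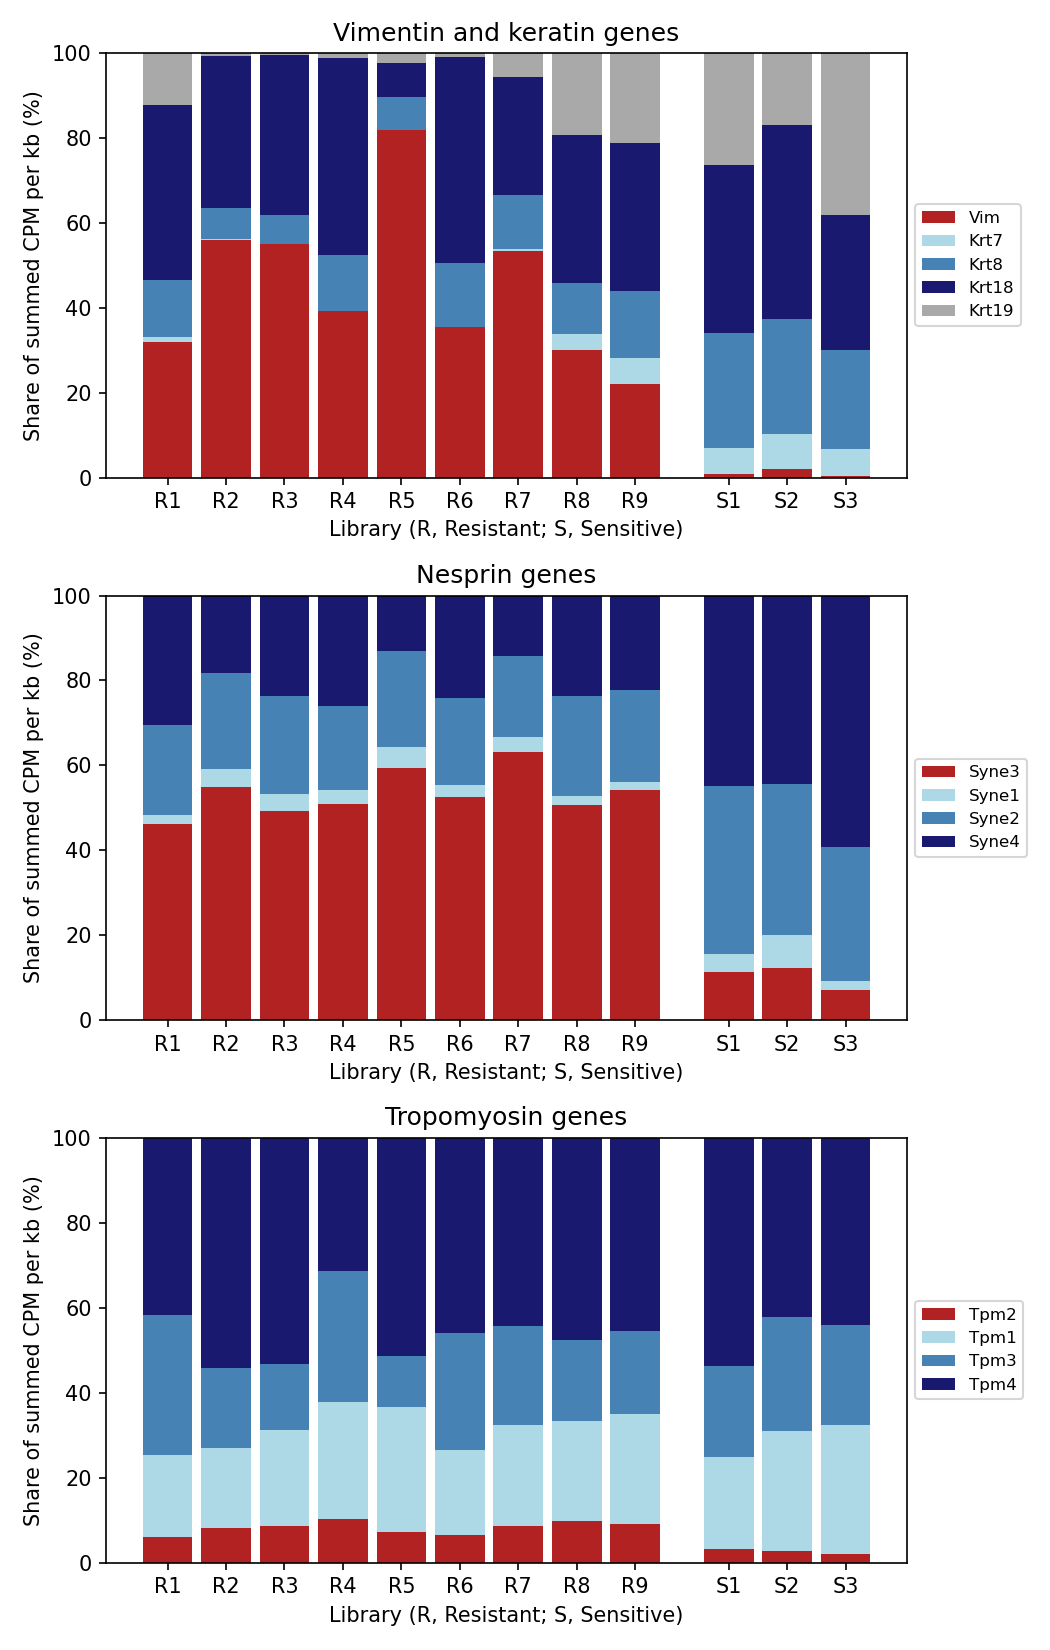
Stacked bars of the percent of each family's summed level (CPM per kilobase of exon) that came from each gene, 1 bar per library, with Resistant libraries R1 to R9 left of Sensitive libraries S1 to S3. The red parts, Vim, Syne3 and Tpm2, are larger in every Resistant library than in any Sensitive one.

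Ordered by CPM per kilobase, Vim was the highest member in Resistant organoids at 460 ± 185, followed by Tpm1 at 97.0 ± 23.1, Flna at 72.9 ± 17.5, Tpm2 at 34.0 ± 8.2, Syne3 at 24.9 ± 6.2 and Flnc at 15.5 ± 3.9 (SD, n = 9 for each). In Sensitive organoids Tpm1 led at 119 ± 17.0, followed by Flna at 93.5 ± 6.9, Vim at 28.7 ± 20.8 and Tpm2 at 12.2 ± 3.0 (SD, n = 3 for each). The ranges of Tpm1 and Flna overlapped in Resistant organoids, at 60.6 to 138 and 45.1 to 93.0 CPM per kilobase. Vim lay above Tpm2 in each Sensitive library, at 20.5, 52.3 and 13.3 against 15.5, 11.5 and 9.53 CPM per kilobase. Below them, Tagln, Syne3, Acta2, Flnc, Myl9 and Cnn1 were each under 2 CPM per kilobase in Sensitive organoids. Flnc and Syne3, next to the contractile genes there, were above every one of them in Resistant organoids.

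Other genes of the same structures were read from lists that were also drawn up with earlier results known. Of 7 tested intermediate filament genes other than keratins, 2 rose and 1 fell in Resistant organoids. Nes, the nestin of progenitor and regenerating cells, averaged 177 ± 71.2 CPM in Resistant and 21.8 ± 15.8 CPM in Sensitive organoids, a log2 fold change of 3.02 with an adjusted p of 9.34e-04. Prph rose and Nefh fell, both neuronal filament genes with means under 3 CPM. Of the 4 simple epithelial keratins, 3 fell and 0 rose: Krt8 averaged 236 ± 92.3 CPM in Resistant and 1322 ± 153 CPM in Sensitive organoids, and Krt18 averaged 530 ± 209 CPM in Resistant and 1458 ± 207 CPM in Sensitive organoids. Krt19 also fell, with an adjusted p of 0.0266 that became 0.0515 without Sensitive library 1 and 0.117 without Sensitive library 3. Krt7 was not called, at 16.6 ± 30.2 CPM per kilobase in Resistant and 180 ± 41.3 in Sensitive organoids (SD). The groups did not overlap for any of the 4 keratins, which held for 31.3% of all genes tested. The median log2 fold change was 0.54 over the first list and -2.84 over the keratins, beside 0.06 over all genes tested.

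Of 10 nuclear linker and lamina genes, 4 rose and 0 fell. Lmna, which encodes the A-type lamins, averaged 735 ± 158 CPM in Resistant and 171 ± 11.2 CPM in Sensitive organoids, with an adjusted p of 2.91e-05. Syne2, the giant nesprin that binds actin, averaged 268 ± 49.4 CPM in Resistant and 100.2 ± 16.4 CPM in Sensitive organoids, and its relative Syne1 averaged 61.3 ± 25.2 CPM in Resistant and 18.7 ± 7.30 CPM in Sensitive organoids. Syne4 was the other gene that rose, so all 4 nesprin genes were higher in Resistant organoids, Syne3 by the most. The median of the list was 0.30 on the log2 scale.

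Of 19 tested genes that bind or cross-link actin, 6 rose and 4 fell, with a median log2 fold change of 0.42. Cnn3, the calponin of non-muscle cells, averaged 337 ± 40.3 CPM in Resistant and 129.9 ± 20.3 CPM in Sensitive organoids. Cald1 (caldesmon) averaged 248 ± 80.4 CPM in Resistant and 45.4 ± 14.3 CPM in Sensitive organoids, and Pdlim7, a PDZ and LIM domain protein of actin bundles, 81.1 ± 16.7 CPM in Resistant and 23.8 ± 4.85 CPM in Sensitive organoids. Tagln2, Tmod3, Csrp1 and Lasp1 were the 4 that fell. Of 2 actin isoform genes tested, Actg1 was called higher with overlapping groups and an adjusted p of 0.0441, which became 0.0518 with the size factors of DESeq2 (RLE) and 0.0802 to 0.131 without 1 of the Sensitive libraries. Actb had an adjusted p of 0.144, which was 0.0288 without Resistant library 1. Of 15 genes of myosin II and its regulators, 6 rose and 3 fell, with a median of 0.25. Myh10, the heavy chain of non-muscle myosin IIB, averaged 177 ± 56.8 CPM in Resistant and 10.6 ± 2.57 CPM in Sensitive organoids, a log2 fold change of 4.06. Ppp1r14a, an inhibitor of myosin phosphatase, rose to 2.63 ± 1.5 CPM in Resistant organoids, against 0.348 ± 0.135 CPM in Sensitive organoids. The light chain gene Myl12b fell to 149.7 ± 17.5 CPM in Resistant organoids, against 318 ± 20.2 CPM in Sensitive organoids. Its neighbour Myl12a went the other way, at 111 ± 23.3 CPM per kilobase in Resistant and 74.8 ± 8.5 in Sensitive organoids. The Myl12a ranges, 92.4 to 164 and 66.0 to 83.0, did not overlap. On that scale Myl12b was 46.3 ± 5.4 in Resistant and 98.4 ± 6.3 in Sensitive organoids. The spans of Myl12a and Myl12b overlap on the - strand of chromosome 17, so reads from the shared part may not be told apart.

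Focal adhesion genes, which join actin to integrins, had 5 of 16 higher and 1 lower, with a median of 0.43. Vcl (vinculin) averaged 262 ± 97.5 CPM in Resistant and 55.0 ± 7.99 CPM in Sensitive organoids, the fibronectin receptor chain Itga5 averaged 157 ± 67.2 CPM in Resistant and 29.7 ± 5.78 CPM in Sensitive organoids, and Fhl2 rose by 2.49 on the log2 scale. Of the 3 tested genes of SRF and its coactivators, 0 rose and 1 fell. Srf had a log2 fold change of 0.22 and an adjusted p of 0.440. Mkl1 (also called Mrtfa) had -0.40 with 0.125, and Mkl2 (Mrtfb) fell by 0.84 with an adjusted p of 0.00515. These coactivators take actin signals to SRF.

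Vim, Tpm2 and Tagln were used to look for genes with the most similar profile over the 9 Resistant libraries, by the root mean square difference of centred log2 CPM among 9416 genes. For Vim the 5 nearest were Smarcd3, Bmp1, Plekho1, Slc39a13 and Dnase1l1, at 0.175 to 0.211, beside a median of 0.648 over all candidates. For Tpm2 they were Blcap, Pld3, Rapgefl1, Dvl2 and Dok1, at 0.109 to 0.157, beside a median of 0.527. For Tagln, whose Resistant libraries held only 19 to 49 counts, they were Dnajb9, Lin52, Pnrc1, Oser1 and Amotl2, at 0.228 to 0.292, beside 0.677. Being near in these 9 libraries did not mean a like difference between groups: against Sensitive organoids Bmp1, a procollagen-cleaving protease, was higher by 2.68 on the log2 scale, while Pld3 was lower, with a value of -0.96 and an adjusted p of 0.0125.

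In NSCLC organoids the members that were higher than in Normal organoids were Tpm2, Flna and Tpm1, by 2.43, 1.31 and 0.59 on the log2 scale, and Vim and Flnc did not pass the test. All 10 members passed the filter on low counts in this table. Of the 15 settings run, Myl9 had a test result in 8, and Acta2, Tagln and Cnn1 in 14. With edgeR's quasi-likelihood test 3 were called higher and 0 lower, and the same 3 had groups that did not overlap. Of all 19932 genes tested, 28.5% were called higher and 25.0% lower, 53.5% in all, and 59.4% had groups that did not overlap, so the members' counts are read as a description alone. The median log2 fold change of all genes tested was 0.11 with TMM scaling and -0.08 with upper quartile scaling.

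Tpm2 was measured at 124, 57.8, 113 and 90.4 CPM in NSCLC libraries 1 to 4, against 28.0, 12.7 and 12.8 CPM in Normal libraries 1 to 3. Every NSCLC library was above every Normal one, and NSCLC library 2 was the lowest of its group. The log2 fold change was 2.43 ± 0.38 (SE), with an adjusted p of 0.00106. Flna was measured at 334, 340.3, 425 and 533 CPM in the NSCLC libraries, against 111, 226 and 156 CPM in the Normal libraries. Its groups were separate too, with a log2 fold change of 1.31 ± 0.28 (SE) and an adjusted p of 0.00468. Tpm1 was measured at 627, 541, 875 and 825 CPM in the NSCLC libraries, against 409, 527 and 496 CPM in the Normal libraries. NSCLC library 2 lay just above Normal library 2, and the log2 fold change of 0.59 ± 0.21 (SE) had an adjusted p of 0.0447. That call was lost when any Normal library or NSCLC library 3 or 4 was left out, with adjusted p-values of 0.0816 to 0.144 without a Normal library, 0.0868 without NSCLC library 3 and 0.110 without NSCLC library 4.

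Vim was measured at 4.51, 10.8, 191 and 32.7 CPM in NSCLC libraries 1 to 4, against 11.1, 76.9 and 27.3 CPM in the Normal libraries. NSCLC library 3 stood far above the other NSCLC libraries, and the groups overlapped. The log2 fold change was 0.64 ± 1.20 (SE) with an adjusted p of 0.679, and it was -1.28 without NSCLC library 3. Flnc was measured at 1.38, 1.38, 8.16 and 2.17 CPM in the NSCLC libraries, against 7.19, 13.4 and 6.19 CPM in the Normal libraries. Only NSCLC library 3 reached the Normal range. Its log2 fold change was -1.45 ± 0.67 (SE) with an adjusted p of 0.102; without NSCLC library 3 it was -2.45 with an adjusted p of 0.00192, and DESeq2 gave an adjusted p of 0.0487 with all libraries. NSCLC library 3 had the highest mesothelial marker sum, 1777 CPM against 129 to 938 CPM in the other NSCLC libraries. It also had the highest epithelial marker sum, 10659 CPM against 6824 to 8330 CPM. Normal library 2, the highest of its group for Vim and Flnc, had the most fibroblast marker RNA, 418 CPM. Its mesothelial marker sum was the lowest of the Normal group, 221 CPM against 510 and 654 CPM. The part of these markers in the Vim and Flnc levels was not tested. In the NSCLC libraries the fibroblast marker sum was 0.255 to 0.643 CPM, with Lum, Postn and Tcf21 at 0.

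Syne3 was measured at 11.3, 2.13, 6.43 and 2.87 CPM in the NSCLC libraries, against 3.69, 2.86 and 2.08 CPM in the Normal libraries. The groups overlapped, and its log2 fold change of 0.98 ± 0.59 (SE) had an adjusted p of 0.190. The contractile genes were again at trace level, and below 1 CPM in all 7 libraries. Acta2 had 74, 28, 12 and 27 counts in the NSCLC libraries, against 8, 16 and 2 in the Normal libraries, which is 0.0993 to 0.594 CPM in NSCLC and 0.0924 to 0.703 CPM in Normal organoids. Its groups overlapped, with a log2 fold change of -0.55 ± 0.79 (SE) and an adjusted p of 0.585. Tagln had 15 to 38 counts in NSCLC libraries and 5, 0 and 7 in the Normal libraries, Cnn1 had 22 to 35 in NSCLC and 5, 3 and 1 in Normal libraries, and Myl9 had 7 to 15 in NSCLC and 2, 2 and 0 in Normal libraries. Their adjusted p-values were 0.918, 0.510 and 0.878, and several of the Normal values lie at or below the floor of 3 counts.

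**Figure D4:**
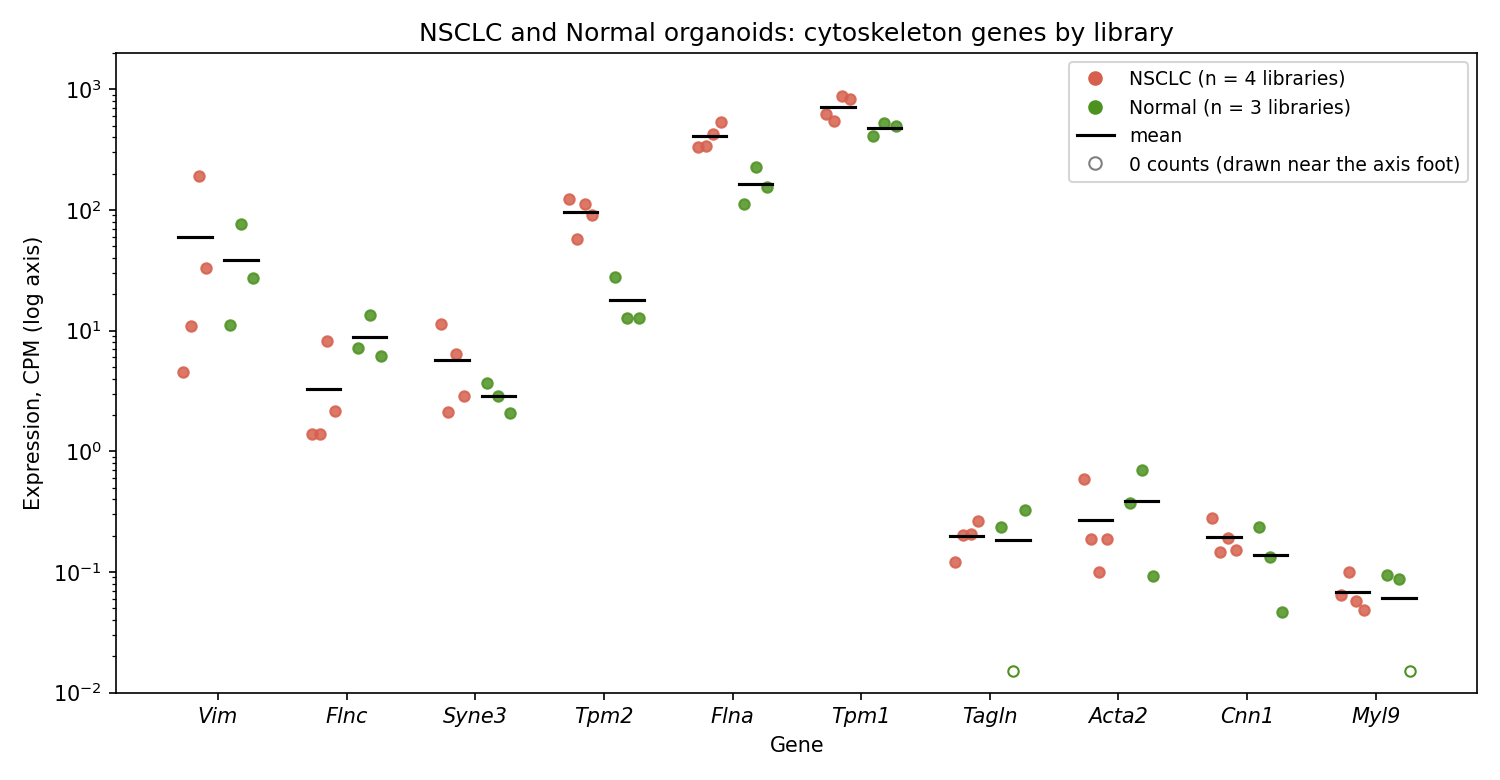
CPM on a log axis of the 10 members in the 4 NSCLC and 3 Normal libraries; each point is a library and the horizontal bar is the group mean. Tpm2, Flna and Tpm1 have no overlap between the groups, and 1 NSCLC library, number 3, lies apart for Vim and Flnc.

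Per length, Tpm2 was 9.05 ± 3.0% of the tropomyosins in NSCLC and 2.99 ± 1.9% in Normal organoids. Vim was 0.018, 0.049, 0.506 and 0.118% of the vimentin and keratin sum in NSCLC libraries 1 to 4, against 0.407, 2.38 and 0.796% in Normal libraries 1 to 3, with NSCLC library 3 and Normal library 2 the highest of their groups and the groups overlapping. All 4 keratins rose, Krt8 to 2909.9 ± 428 CPM in NSCLC organoids, against 313 ± 76.1 CPM in Normal organoids. In the actin-binding list 14 of 22 rose and 5 fell, with a median log2 fold change of 1.10, and Cnn3 and Csrp2 rose by 1.47 and 2.77 on the log2 scale. Of the nuclear linker and lamina genes 5 of 10 rose and 1 fell (median 0.65), among them Lmna at 416 ± 157 CPM in NSCLC and 98.5 ± 16.5 CPM in Normal organoids, Lmnb1 and Lmnb2. Of the intermediate filament genes other than keratins 3 of 10 rose and 1 fell (median 0.35); the muscle filament gene Des fell by 4.97 on the log2 scale. Of the actin isoform genes 1 of 3 rose, Acta1, at means under 1 CPM. Of 16 myosin II genes 4 rose and 2 fell (median 0.26), with Rhoc higher by 2.58 and Myh10 lower, at -1.96. Of the SRF genes 1 of 3 rose, Mkl1 by 0.94. Of 15 focal adhesion genes 3 rose and 5 fell (median -0.41), with Fhl2 higher by 6.01 and Fhl1 and Tgfb1i1 lower, at -4.83 and -4.80.

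Markers of other cells also differed between NSCLC and Normal organoids. All 8 fibroblast markers fell, to sums of 0.255 to 0.643 CPM in NSCLC, against 71.0 to 418 CPM in Normal libraries. Of 9 tested pericyte and smooth muscle markers 6 fell and 1 rose, with sums of 10.9 to 87.2 CPM in NSCLC and 36.8 to 65.5 CPM in Normal libraries. All 4 tested endothelial markers fell, though Pecam1 lost its call without Normal library 2 or 3 or NSCLC library 3 (adjusted p of 0.0551 to 0.131), and of 6 macrophage markers 3 fell and 2 rose. All 6 epithelial markers rose. Of 3 mesothelial markers 0 passed the test, and of 4 skeletal muscle markers 1 rose (Acta1) and 1 fell (Des). Between Resistant and Sensitive organoids, 0 of 5 tested endothelial markers and 0 of 1 skeletal muscle marker passed, and of 3 mesothelial markers 1 fell, Upk1b, a call lost without any 1 of the Sensitive libraries (adjusted p of 0.0714 to 0.0740).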

How the data were processed

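Stranded mRNA libraries of mouse lung organoids were read as paired ends. Per the submitters' processing notes, STAR 2.6.0a, DESeq2 1.26.0 and the build mm10 were used; no label or header names the counter or annotation. The authors deposited raw counts per gene and library, with log2 fold changes and adjusted p-values of their own, in separate tables for NSCLC against Normal and Resistant against Sensitive; 7 and 12 columns of scaled values were not used. Library totals of 11988677 to 154479953 counts limit the precision of genes with few counts.

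The members and gene lists were chosen with earlier results of these data known. The counts of each table were fitted on their own with edgeR 4.0.16 (R 4.3.3): filterByExpr with a minimum count of 10, TMM scaling, the quasi-likelihood test over all genes and Benjamini-Hochberg adjustment, called under 0.05. SE is the log2 fold change over the square root of F. Levels per kilobase use exon lengths of the mm10 gene annotation. The fits were tested on simulated data. Named genes were all members, the 3 genes of each list with the smallest adjusted p (those called, plus the actin and SRF lists), and the 5 genes nearest to Vim, Tagln and Tpm2 among genes averaging 3 or more on the log2 CPM scale; 1 gene that this rule names is not reported here. Symbols were given to 26857 identifiers, and 26 of 27 and 26 of 26 symbols stored as dates were restored. Alternatives were RLE and upper quartile scaling, DESeq2 1.42.0, no filter, a replicate block, thinning, and leaving out libraries.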

Additional observations from a re-analysis of the deposited data

Results flagged for a closer look

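A library was set apart where its gap to the nearest other library of its group, over the range of the group, passed Dixon's critical value. This was set at the 95% level, which chance passes in about 1 in 20 groups. Only groups of at least 4 libraries were screened, so the Normal and Sensitive groups were not. Among members, NSCLC library 3 stood apart for Vim, at 191 CPM with the nearest library at 32.7 CPM, and for Flnc, at 8.16 CPM with the nearest at 2.17 CPM. No Resistant library stood apart for a member by this measure. Among other genes, NSCLC library 1 was highest for Cnn3 (119.5 CPM, nearest 102 CPM), NSCLC library 4 for Col1a2 (0.0279 CPM, nearest 0.00827 CPM), Resistant library 5 for Prph (6.03 CPM, nearest 2.12 CPM), Resistant library 1 for Actb (1782 CPM, nearest 1386 CPM) and Resistant library 6 for Upk1b (0.673 CPM, nearest 0.278 CPM). Resistant library 1 was lowest for Col3a1 (15.7 CPM, nearest 133 CPM) and Pdgfrb (2.68 CPM, nearest 18.5 CPM), and it also had the lowest Vim and Flnc of its group.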

How the results depend on the processing

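Between Resistant and Sensitive organoids, Vim, Flnc, Syne3 and Tpm2 kept their direction and their call under every alternative run, with adjusted p-values of at most 0.0446. Of 160 alternative values of members there, 1 turned: Acta2 was 0.028 without Sensitive library 1. It ran from -0.35 to 0.028 with 1 library left out, and from -1.36 to 0.028 over all settings. Between NSCLC and Normal organoids 9 of 130 turned: Vim was -0.72 with the replicate block and -1.28 without NSCLC library 3; Acta2 was 0.17 without Normal library 2; Tagln was -0.084 with upper quartile scaling, -0.11 over libraries 1 to 3 without the block, which is also the fit without NSCLC library 4, and -0.51 without Normal library 2; Myl9 was -0.0083 with upper quartile scaling and -0.39 without Normal library 3. Actb, no member, was -0.016 with upper quartile scaling. With a library left out these values ran up to 1.61 for Vim and 0.80 for Tagln, down to -1.33 for Acta2, and up to 0.60 for Myl9. None of these values passed the test, and the cause was not tested. Tpm1 lost its call with RLE scaling (0.0620), upper quartile scaling (0.113), thinning to the shallowest library (0.0822) and the block (0.159). With DESeq2, 1 member was called lower, Flnc. Leaving out 1 library gave 2 to 3 members higher and 0 to 1 lower in NSCLC organoids, and 4 higher and 0 lower each time in Resistant organoids. Over all genes it gave 4490 to 5339 higher and 4092 to 5144 lower in NSCLC, and 1765 to 2867 higher and 1859 to 2694 lower in Resistant organoids, where Sensitive library 3 (1765 without it) and Sensitive library 1 (1800) mattered most for the count of higher genes, 2768 with all libraries. The cause was not tested. Over the family lists it gave 31 to 36 higher and 12 to 16 lower in NSCLC, and 18 to 28 higher and 9 to 14 lower in Resistant organoids. The libraries share replicate numbers only: the correlation of same-numbered deviations was -0.01, 0.02 and -0.02 for NSCLC and Normal, and 0.14, 0.15 and -0.09 for Resistant and Sensitive. With the replicate block over libraries 1 to 3, 2 members were higher in NSCLC and 4 in Resistant organoids, and over all genes 4438 were called higher in NSCLC and 1914 in Resistant organoids. Beside Tpm1, the named genes that lost their call under the block were Pecam1 (adjusted p of 0.0795) between NSCLC and Normal organoids, and Mkl2 (0.0602), Actg1 (0.118), Pdgfrb (0.150) and Upk1b (0.0536) between Resistant and Sensitive organoids. The alternative called libraries 1 to 3 without the block was chosen after seeing the data. Low counts limit Cnn1, Myl9, Acta2 and Tagln.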
